A study of Homo sapiens and Mus musculus with 24 samples.

Results

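Hyaluronan is a long sugar polymer that fills the space between cells. Its RNA-level machinery was followed here through 7 genes in MCF10A, an epithelial line from human breast without tumour-forming capacity. HAS2 and HAS3 encode synthases that extrude the polymer through the plasma membrane. HYAL1, HYAL2 and HYAL3 belong to the hyaluronidase family, CEMIP encodes a protein needed for another route of hyaluronan breakdown, and CD44 encodes the main cell-surface receptor. The 7 genes were selected by symbol from 56981 symbols (58434 gene identifiers) in the deposited tables, and they were chosen from earlier results of the same libraries, so their tests are given as a description and are not independent evidence.

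The libraries come from parental MCF10A cells and from cells with a heterozygous knock-in of PIK3CA H1047R (KI below), which activates the kinase PI3K alpha. The pair was bought as isogenic lines. Cells of each genotype received either DMSO, the solvent, or alpelisib (BYL719), which inhibits PI3K alpha, at 1 uM for 4 hours. Each of the 4 groups had n = 3 libraries. The sources used here do not say whether these are separate cultures, so p-values measure the spread between these libraries, which may be technical. If each genotype is 1 line, clone and genotype cannot be told apart.

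PI3K alpha makes a membrane lipid that activates AKT, and AKT in turn keeps FOXO transcription factors out of the nucleus. Hyaluronan synthases use UDP-glucuronic acid and UDP-N-acetylglucosamine made in the cytosol. HYAL2 and HYAL1 act in succession on long and shorter chains, while CD44 binds the polymer and is spliced into a standard form and into longer variant forms that carry extra exons in the stem outside the membrane.

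CD44 lies on chromosome 11 of GRCh38 (chr11:35138870-35232402, plus strand). In the GENCODE release 29 annotation its longest transcript in the files, CD44-208, has 18 exons, and 9 of them, v2 to v10, are absent from the standard form CD44-201. These 9 variable exons are coding, add 1143 bases and lie between 35196746 and 35211449. All 39 CD44 transcripts in the files had the same identifier and length in that annotation. The isoform results below come from estimates for whole transcripts, and reads over single joins were not counted. CD44-201 and CD44-208 end in an exon of 3274 bases. CD44-206 and CD44-209, at 2369 and 2292 bases in all, cannot hold it, so these forms also differ at that end. The joins after the last constant exon before the variable ones are printed to show how the forms differ there. Each shows the last bases of the constant exon at 35189835 to 35190065 in lower case and the first bases of the next exon in capitals, 5′ to 3′ on the plus strand.
CD44-201, no variable exon: gaatccctgctaccaGAGACCAAGACACAT
CD44-209, joined to v8: gaatccctgctaccaATATGGACTCCAGTC
CD44-206, joined to v3: gaatccctgctaccaGTACGTCTTCAAATA
CD44-208, joined to v2: gaatccctgctaccaCTTTGATGAGCACTA
Exon v2 (chr11:35196746-35196874, 129 bases) is present in CD44-208 and absent from the other 3 forms listed, and exon v3 (chr11:35198121-35198246, 126 bases) is the next in order. Both are given whole.
v2: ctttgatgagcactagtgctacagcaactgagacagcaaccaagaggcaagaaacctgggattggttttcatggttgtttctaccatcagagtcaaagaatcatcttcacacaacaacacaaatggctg
v3: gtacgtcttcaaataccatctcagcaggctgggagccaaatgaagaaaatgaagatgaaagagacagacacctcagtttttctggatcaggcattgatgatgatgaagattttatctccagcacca

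Libraries held 120177015 to 162755457 estimated read pairs. The targeted gene PIK3CA is edited and not deleted, so its level does not check the labels, and the edited allele was not analysed here. All 9 epithelial and basal mammary markers had a group mean of at least 1 CPM (estimated pairs scaled to a common library total) in every group. Among markers of other cell types, HBB was at 0 in all libraries and CDH5 was at most 0.0076 CPM. Summed levels of 5 endothelial markers were 1.503 to 1.618 CPM in parental DMSO, 2.43 to 2.66 in parental BYL719, 1.15 to 1.80 in KI DMSO and 2.71 to 2.97 in KI BYL719, most of it KDR. The 6 haematopoietic markers summed to 15.7 to 16.5 CPM in parental DMSO and 9.75 to 10.4 CPM in KI BYL719, the 4 adipocyte markers to 1.207 to 1.284 and 0.154 to 0.244 CPM, and the 5 neural and glial markers to 40.8 to 42.9 and 41.7 to 47.7 CPM. The part of these transcripts in the results was not tested. KI DMSO replicate 2 stood apart on the second principal component, at 31.4 against 6.54 and 9.34 for the other KI DMSO libraries. Several results for the 7 genes and the CD44 transcripts are given with and without it. Fitted values of single genes outside the 7 are given with it, and some of them depend on it.

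HAS2 was the member with the largest difference in each comparison between groups. It rose with the knock-in, rose with BYL719 in both genotypes, and was highest where both came together. In parental DMSO libraries its level was 1.10, 1.25 and 1.34 CPM. In KI DMSO libraries it was 3.60, 3.51 and 3.66 CPM. In parental BYL719 libraries it was 4.26, 5.64 and 5.15 CPM. In KI BYL719 libraries it was 22.5, 21.6 and 26.8 CPM. No library of one group overlapped another group, and the order from low to high was parental DMSO, KI DMSO, parental BYL719 and KI BYL719.

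The log2 fold change of HAS2 was 1.57 (SE 0.12) for KI against parental in DMSO, with an adjusted p of 1.1e-06 by edgeR's quasi-likelihood test with Benjamini-Hochberg adjustment over 21079 genes. For BYL719 against DMSO it was 2.03 (SE 0.12) in parental cells (edgeR adjusted p = 1.32e-05) and 2.72 (SE 0.11) in KI cells (edgeR adjusted p = 2.55e-08). Under BYL719 the KI level was above the parental one by a log2 fold change of 2.26 (edgeR adjusted p = 2.13e-08). The 2 BYL719 effects share no libraries, and their difference, the interaction, was 0.69 (SE 0.16, edgeR adjusted p = 0.0463). That last call was lost in 13 of 19 other settings, among them leaving out any 1 library other than KI DMSO replicate 2. Over all 19 the log2 value ran from 0.564 to 0.779 and the adjusted p from 0.00407 to 0.146. The rises of HAS2 in the single comparisons kept their calls in all 19 or 20 settings tried for each.

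KI BYL719 replicate 3, which had the highest HAS2 level, also had fibroblast collagen RNA. COL1A2 was at 4.33 CPM there and at most 0.307 CPM in the other 11 libraries, and COL3A1 was at 2.12 against at most 0.157 CPM. The summed level of the 6 fibroblast markers was 17.9 to 31.8 CPM in KI BYL719 and 23.6 to 26.2 CPM in parental DMSO, most of it COL1A1. Without that library the log2 change of HAS2 with BYL719 in KI cells was 2.61 and kept its call. In bulk RNA, more cells with a transcript and more transcript per cell cannot be told apart.

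HAS3, the other synthase among the 7, moved the other way with BYL719 and by less. Its level was 6.55, 5.49 and 5.56 CPM in parental DMSO and 6.62, 5.01 and 6.65 CPM in KI DMSO. Under BYL719 it was 5.07, 4.72 and 4.14 CPM in parental cells and 5.32, 4.10 and 4.20 CPM in KI cells. Parental DMSO overlapped neither BYL719 group, and the other pairs of groups overlapped. HAS3 fell by 0.43 on the log2 scale (SE 0.13, edgeR adjusted p = 0.0296) with BYL719 in KI cells. That call was lost in 5 of 20 settings, namely with only the groups compared and without KI DMSO replicate 1 or 3 or KI BYL719 replicate 2 or 3, with adjusted p from 0.00253 to 0.112 over the 20. In parental cells the log2 value was -0.34 with an edgeR adjusted p of 0.29. There 1 of 20 settings called the fall, that with only the groups compared (edgeR adjusted p = 0.0063), which lost the KI call. The difference between the 2 effects had an edgeR adjusted p of 0.854.

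Per transcript length, HAS3 was above HAS2 in every library of 3 groups and below it in every KI BYL719 library. In TPM, which the authors scaled by transcript length, HAS2 was at 0.378 to 0.461 and HAS3 at 2.24 to 3.07 in parental DMSO. In parental BYL719 HAS2 was at 1.48 to 1.98 TPM and HAS3 at 1.87 to 2.60 TPM, and in KI DMSO they were at 1.04 to 1.27 and 2.30 to 3.35 TPM. In KI BYL719 HAS2 was at 7.51 to 9.19 TPM and HAS3 at 1.76 to 2.71 TPM. The files list 1 transcript of HAS2 and 5 of HAS3. HAS3 overlaps CHTF8 by 710 bases on the other strand, and the part of such reads in its counts was not tested. HAS1, the remaining synthase gene, was at group means of 0.152 to 0.185 CPM and was called in no comparison.

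**Figure D1:**
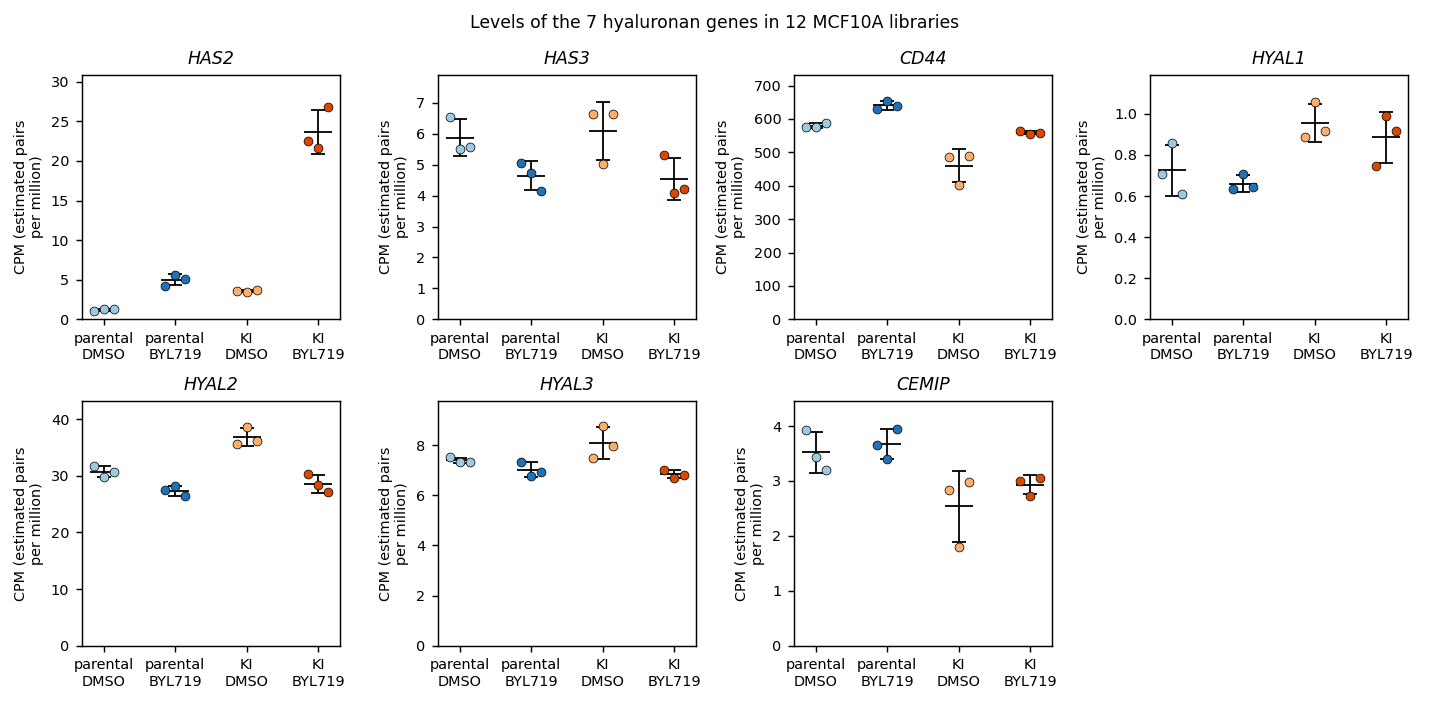
Level of each of the 7 genes in CPM (vertical axes, from 0, a separate scale per gene) in the 4 groups of MCF10A libraries. Points are libraries, and bars are the mean ± SD (n = 3). HAS2 separates all 4 groups, from 1.10 CPM to 26.8 CPM, and CD44 is lowest in KI DMSO.

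HYAL2 was the most abundant hyaluronidase gene. It was at 31.8, 29.8 and 30.7 CPM in parental DMSO and at 35.6, 38.7 and 36.2 CPM in KI DMSO, with no overlap. Under BYL719 it was at 27.5, 28.1 and 26.4 CPM in parental cells and at 30.4, 28.4 and 27.2 CPM in KI cells. HYAL2 rose with the knock-in by a log2 fold change of 0.29 (SE 0.06, edgeR adjusted p = 0.0023). It fell by 0.37 (SE 0.06, edgeR adjusted p = 0.000596) with BYL719 in KI cells. Both calls were kept in all settings tried, 19 and 20. In parental cells the log2 change with BYL719 was -0.17 (edgeR adjusted p = 0.21), and without KI DMSO replicate 2 it was -0.18 and called (adjusted p = 0.0181). With only the groups compared it was called too (edgeR adjusted p = 0.000782).

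HYAL3, whose product has little known activity, was at 7.32 to 7.51 CPM in parental DMSO and at 7.49 to 8.77 CPM in KI DMSO. BYL719 groups lay at 6.77 to 7.34 CPM in parental cells and 6.68 to 7.02 CPM in KI cells. It fell by 0.25 on the log2 scale (SE 0.07, edgeR adjusted p = 0.0235) with BYL719 in KI cells, and 5 of 20 settings lost that call, among them a replicate block within each genotype and those without KI BYL719 replicate 2 or 3, with adjusted p up to 0.133. The ranges of KI DMSO and KI BYL719 did not overlap, and those of the parental groups did. HYAL1, the lysosomal enzyme, was the least abundant of the 7 in mean CPM in each group, at 0.612 to 0.859 CPM in parental DMSO and 0.888 to 1.06 CPM in KI DMSO. Its log2 difference of 0.42 in DMSO had an edgeR adjusted p of 0.0506, and 6 of 19 settings called it, with adjusted p from 0.0245 to 0.276. The 3 genes lie side by side on chromosome 3 (HYAL3 at chr3:50292831-50299468, HYAL1 at chr3:50299889-50312381, HYAL2 at chr3:50317790-50322906, all on the minus strand). HYAL2 overlaps TUSC2 by 2880 bases, and HYAL3 overlaps NAA80 by 3020 bases on the same strand, so their counts depend on how shared reads were divided.

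CEMIP (chr15:80779343-80951776) was at 3.93, 3.44 and 3.20 CPM in parental DMSO and at 2.83, 1.79 and 2.99 CPM in KI DMSO. It fell by 0.45 on the log2 scale with the knock-in (SE 0.15, edgeR adjusted p = 0.0371). Without KI DMSO replicate 2, the library at 1.79 CPM, the log2 value was -0.265 and the call was lost. It was also lost without parental DMSO replicate 1 or 2, without parental BYL719 replicate 1 and with only the groups compared, with adjusted p up to 0.139 over the 19 settings. BYL719 groups lay at 3.40 to 3.95 CPM in parental cells and at 2.74 to 3.05 CPM in KI cells, and no inhibitor effect on CEMIP was called. On the other strand the CEMIP span overlaps MESD by 5488 bases. It also overlaps the antisense genes AC027808.1 and AC027808.2 by 52678 and 13587 bases. The part of such reads in its counts was not tested.

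CD44 was abundant, and lower in the KI line. Parental DMSO libraries had 575, 577 and 589 CPM, and KI DMSO libraries had 487, 404 and 490 CPM. Under BYL719 the levels were 628, 654 and 639 CPM in parental cells and 563, 554 and 559 CPM in KI cells. No group overlapped another. CD44 fell by 0.31 on the log2 scale (SE 0.06, edgeR adjusted p = 0.00133) with the knock-in and rose by 0.28 (SE 0.06, edgeR adjusted p = 0.00378) with BYL719 in KI cells. KI DMSO replicate 2 was the lowest library, and without it those values were -0.236 and 0.187, both still called. The second call was lost with only the groups compared (0.279, adjusted p = 0.0588). In parental cells the log2 change with BYL719 was 0.14 (edgeR adjusted p = 0.356), and it was 0.132 and called without KI DMSO replicate 2. With only the groups compared it was called too, and over 20 settings the adjusted p ran from 0.00106 to 0.8. KI against parental under BYL719 was -0.17 (edgeR adjusted p = 0.054), and 7 of 19 settings called it, with adjusted p from 7e-05 to 0.162.

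Of the 7 genes, 2 were called higher and 2 lower for KI against parental in DMSO, where 34.2% of all genes tested were called. With BYL719 in parental cells 1 was called (1.43% of all genes). With BYL719 in KI cells 2 were higher and 3 lower (28.3% of all genes). Under BYL719, 1 was called between genotypes (22.3% of all genes), and 1 in the interaction (2.87% of all genes). Without KI DMSO replicate 2 these counts were 3, 3, 5, 4 and 1. Calls over all genes moved as well, to 8382, 1973, 6977, 7442 and 1874 of 21525 genes in the same order. With all libraries they were 7213, 302, 5964, 4709 and 606 of 21079. The members were chosen on these libraries, so nothing is read from their counts. Their median log2 change was 0.16 for KI against parental in DMSO and -0.11 for BYL719 in KI cells, beside medians of 0.00 and 0.02 over all genes.

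**Figure D2:**
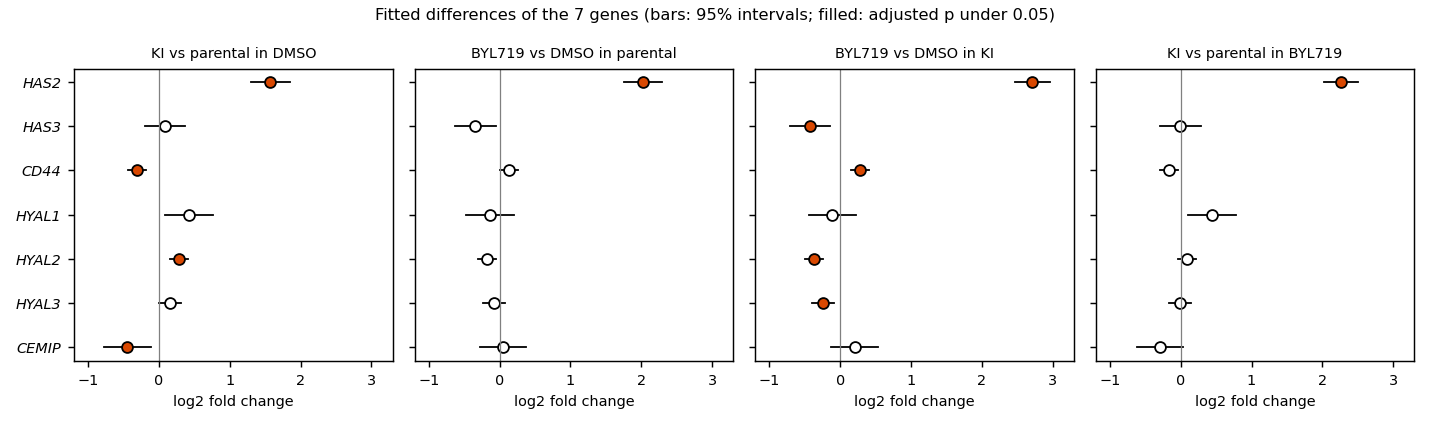
Fitted log2 fold change (horizontal axis) of the 7 genes in 4 comparisons, with 95% intervals as bars. Filled points had an adjusted p under 0.05 over all genes. HAS2 lies between 1.57 and 2.72 in every panel, and the other 6 genes lie between -0.45 and 0.45.

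CD44 transcripts with variable exons made up a smaller part of its TPM in KI than in parental libraries. Many of them are annotated as fragments or retained introns. Transcripts that hold at least 1 variable exon made up 80.1% to 81.3% of the TPM of informative CD44 transcripts in parental DMSO and 79.2% to 80.1% in parental BYL719. In KI cells they made up 75.8%, 66.7% and 74.9% in DMSO and 75.3% to 76.2% under BYL719. Each KI library was below each parental library, and KI DMSO replicate 2 was the lowest. No test was run on these sums. As shares of counts in place of TPM they were 55.1% to 57.2% in the parental libraries and 37.1% to 47.9% in the KI libraries. Longer transcripts collect more reads, and CD44-201, at 4589 bases, is longer than most transcripts with variable exons.

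Among single forms, the standard CD44-201 had 16.6% to 17.4% of all CD44 TPM in parental DMSO and 20.75%, 28.7% and 22.1% in KI DMSO. The ranges of its own level overlapped, at 71.0 to 74.3 TPM and 66.05 to 76.0 TPM. CD44-206, with v3 to v10, went from 71.5 to 77.1 TPM in parental DMSO to 44.7, 21.4 and 42.9 TPM in KI DMSO. CD44-208, with v2 to v10, was at 5.95 to 6.62 TPM in parental DMSO and 1.99 to 2.69 TPM in KI DMSO. CD44-209, with v8 to v10, was at 68.8 to 71.7 TPM and at 63.4, 40.1 and 64.8 TPM. Each of these 3 variant forms was thus lower in each KI DMSO library than in each parental DMSO library.

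Levels of single transcripts were tested with edgeR over 93545 transcripts. For KI against parental in DMSO, where 4.88% of transcripts were called, 8 CD44 transcripts were lower and 1 higher. Without KI DMSO replicate 2, 9 were lower and 0 higher. CD44-208 fell by 1.35 (SE 0.09, edgeR adjusted p = 1.86e-05) and CD44-206 by 1.01 (SE 0.16, edgeR adjusted p = 0.00621) on the log2 scale. Without that library they fell by 1.33 and 0.80, both called. Of the fragments, CD44-239, with v8 to v10, fell by 1.11 (edgeR adjusted p = 0.000344) and CD44-231, with v6 to v10, by 0.51 (edgeR adjusted p = 0.0305). The other 4 lower ones also hold variable exons, as do most CD44 transcripts tested, and the gene as a whole fell by 0.31. CD44-220, with v3 as its variable exon, was the higher one, by 1.30 (edgeR adjusted p = 0.0383), a call lost without that library (adjusted p = 0.0653). CD44-201 differed by 0.05 (SE 0.05, edgeR adjusted p = 0.693) and CD44-209 by -0.30 (edgeR adjusted p = 0.101), and without that library CD44-209 was at -0.19 and called. Under BYL719, where 2.85% of transcripts were called between genotypes, CD44-208 was lower by a log2 value of -1.26 (edgeR adjusted p = 3.71e-05) and CD44-206 by -0.76 (edgeR adjusted p = 0.0361). There 5 transcripts, these 2 among them, were called lower without KI DMSO replicate 2. With BYL719 in KI cells, where 3.56% were called, CD44-239 was the CD44 transcript called, at 0.63 (edgeR adjusted p = 0.0155). CD44-201 and CD44-209 were also called higher there without KI DMSO replicate 2, at 0.20 each.

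The share of each transcript within its gene was tested over 85589 transcripts, 35 of them from CD44. For KI against parental in DMSO, where 0.279% of transcripts were called, 2 CD44 forms had a lower share and 0 a higher one. The share of CD44-208 fell by 1.045 on the log2 scale (SE 0.08, edgeR adjusted p = 0.00173), and that of CD44-239 by 0.81 (SE 0.11, edgeR adjusted p = 0.0189). CD44-206 and CD44-201 missed the threshold, with log2 share differences of -0.72 (edgeR adjusted p = 0.0818) and 0.36 (edgeR adjusted p = 0.05002). Under BYL719, where 0.127% were called, the share of CD44-208 was lower in KI by a log2 value of -1.07 (edgeR adjusted p = 0.00154). No CD44 share was called with BYL719 in parental cells (0.00234% of transcripts called), with BYL719 in KI cells (0.102%) or in the interaction (0.0129%). In those 3 comparisons 3, 2 and 3 of the 35 had an unadjusted p under 0.05 by edgeR, and diffSpliceDGE called 0 in each. For CD44-208 the interaction was -0.02 with an SE of 0.11. Without KI DMSO replicate 2, 3 forms were lower and 1 higher in DMSO, and 2 lower and 1 higher under BYL719. Without parental DMSO replicate 1 or 3 or KI DMSO replicate 3, 1 form was called in DMSO, and without parental DMSO replicate 2, 2 forms were called under BYL719.

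CD44-208 held 1.42% to 1.54% of CD44 TPM in parental DMSO, under the share of 5% set for naming a transcript, and it is named because its test stood out. CD44-218 and CD44-231, which are fragments, and CD44-227, which swung from 0 to 32.4 TPM between libraries, were over that share and their shares were called in no comparison. Salmon divides reads among forms that share most of their exons, and that error is not in these tests. CD44-AS1, on the other strand, overlaps CD44 by 4643 bases that hold v10 and the constant exon after it, and the sources used here do not say whether the libraries were stranded.

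**Figure D3:**
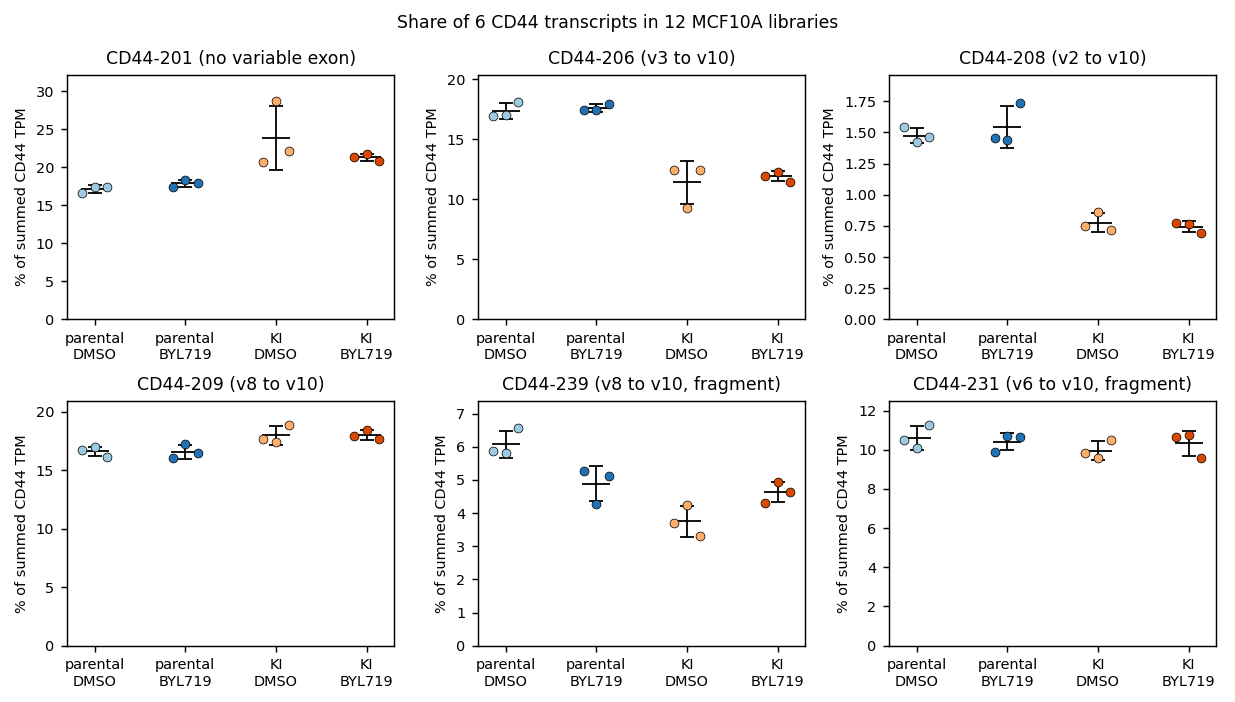
Share of 6 CD44 transcripts in the summed CD44 TPM (vertical axes in percent, from 0, a separate scale per transcript) in 12 libraries. Points are libraries, and bars are the mean ± SD (n = 3). CD44-206 and CD44-208 are lower in all 6 KI libraries than in any parental library, and CD44-201 is higher.

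Genes known to regulate splicing of CD44 were examined from a list. ESRP1 and ESRP2, epithelial factors that favour the variant exons, were both lower in KI. ESRP1 was at 204 to 210 CPM in parental DMSO and at 115, 97.0 and 115 CPM in KI DMSO, a log2 fall of -0.90 (edgeR adjusted p = 1.18e-07). ESRP2 had a log2 value of -0.48 (edgeR adjusted p = 0.000156). ESRP1 rose by 0.28 with BYL719 in KI cells (edgeR adjusted p = 0.00264). TRA2B was higher by 0.10 in KI DMSO (edgeR adjusted p = 0.0465) and fell with BYL719 in both genotypes, by 0.31 in KI cells (edgeR adjusted p = 5.76e-05) and 0.21 in parental cells (edgeR adjusted p = 0.0127). The parental call was lost with the replicate number as a block within each genotype. SRSF1 and HNRNPM fell and RBFOX2 rose with BYL719 in KI cells. KI DMSO replicate 2 was apart from the other KI DMSO libraries for HNRNPM (589 against 494 and 493 CPM) and RBFOX2 (95.7 against 127 and 125 CPM). CDH1, an epithelial marker, was at 235 to 250.5 CPM in parental DMSO and at 92.0 to 120.2 CPM in KI DMSO, and KRT14 was at 51.4 to 52.4 and 244 to 296 CPM. The part of these genes in the CD44 forms was not tested.

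The list of other hyaluronan pathway genes held 51, of which 39 could be tested. For KI against parental in DMSO 14 were higher and 6 lower, where 34.2% of all genes were called. With BYL719 in KI cells 7 were higher and 7 lower (28.3% of all genes), and in parental cells 0 were higher and 2 lower (1.43%). Under BYL719, 13 were higher and 5 lower in KI (22.3%), and 1 was called in the interaction (2.87%). With the replicate number as a block within each genotype, 0 were called in parental cells and 0 in the interaction, and the calls over all genes in parental cells went from 302 to 125. Without KI DMSO replicate 2, 22 were called with BYL719 in KI cells, 6 in parental cells and 6 in the interaction. Over all 21525 genes tested without that library, 6977, 1973 and 1874 were called in these comparisons. Without any 1 of the 6 parental libraries, 0 were called with BYL719 in parental cells, where calls over all genes were 73 to 134. The list was drawn up with earlier results of these libraries known.

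Of 7 genes that supply the sugar nucleotides, 5 were called higher in KI DMSO and 0 lower, where 34.2% of all genes were called. GFPT1 and PGM3 did not pass, with log2 values of 0.13 and 0.16 and edgeR adjusted p of 0.072 and 0.0647. UGP2, which makes UDP-glucose, had a log2 difference of 0.77 (edgeR adjusted p = 1.5e-07). UGDH, which oxidises it to UDP-glucuronic acid, had 0.71 (edgeR adjusted p = 3.38e-07). GFPT2, UAP1 and GNPNAT1 of the hexosamine branch had 0.56, 0.40 and 0.23. These last 3 fell with BYL719 in KI cells, UAP1 by 0.43, GNPNAT1 by 0.41 and GFPT2 by 0.19. UAP1, the enzyme that forms UDP-N-acetylglucosamine, also fell in parental cells, by 0.24 (edgeR adjusted p = 0.0175), a call lost with the block. UGP2 and UGDH had no call with BYL719 in either genotype, and none of the 7 was called higher with it.

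Of the other breakdown genes, CEMIP2, a cell-surface relative of CEMIP, was higher in KI DMSO by 0.41 (edgeR adjusted p = 0.00585). HEXA, a subunit of a lysosomal enzyme that trims sugars from chain ends, was higher by 0.47 (edgeR adjusted p = 2.88e-06). HEXA also rose with BYL719 in KI cells, by 0.17. HMMR, an intracellular hyaluronan-binding protein tied to the mitotic spindle, was at 197 to 209 CPM in parental DMSO and 177 to 186 CPM in KI DMSO. It fell by 0.15 with the knock-in (edgeR adjusted p = 0.0159) and rose by 0.41 with BYL719 in KI cells (edgeR adjusted p = 3.16e-05), and was higher in KI by 0.14 under BYL719 (edgeR adjusted p = 0.0382). Its interaction was 0.29 (edgeR adjusted p = 0.0258). That call was lost with effective-length offsets, without the low-count filter, with the block within each genotype, and without parental DMSO replicate 2 or 3, any parental BYL719 library, KI DMSO replicate 3 or KI BYL719 replicate 2 or 3.

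Proteins that bind hyaluronan in the matrix split by direction. VCAN, a large proteoglycan, was at 12.3 to 12.9 CPM in parental DMSO and at 1.45, 0.976 and 1.41 CPM in KI DMSO, a log2 value of -3.27 (edgeR adjusted p = 6.13e-10). HAPLN3, a link protein, was at -1.36 (edgeR adjusted p = 9.51e-06). ACAN, at or under 0.118 CPM in group means, was at -2.04. VCAN rose by 0.50 with BYL719 in KI cells, to 1.76 to 1.84 CPM. TNFAIP6, which modifies hyaluronan, was higher in KI DMSO with a log2 value of 3.88 (edgeR adjusted p = 1.15e-05), from 0.0307 to 0.0444 CPM to 0.488 to 0.709 CPM, and BCAN was higher by 1.16 with group means of 0.142 CPM or less. Of the CD44 partners and sheddases, EZR, MMP14 and SPP1 were higher in KI DMSO, by 0.27, 0.24 and 1.31. SPP1 was near the floor, at 0.1045 to 0.126 CPM in parental DMSO and 0.246 to 0.328 CPM in KI DMSO. With BYL719 in KI cells ADAM10 rose by 0.26 and EZR fell by 0.16. In KI DMSO ADAM10 was at 139.8, 106.2 and 133.7 CPM, so its rise depends in part on replicate 2.

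**Figure D4:**
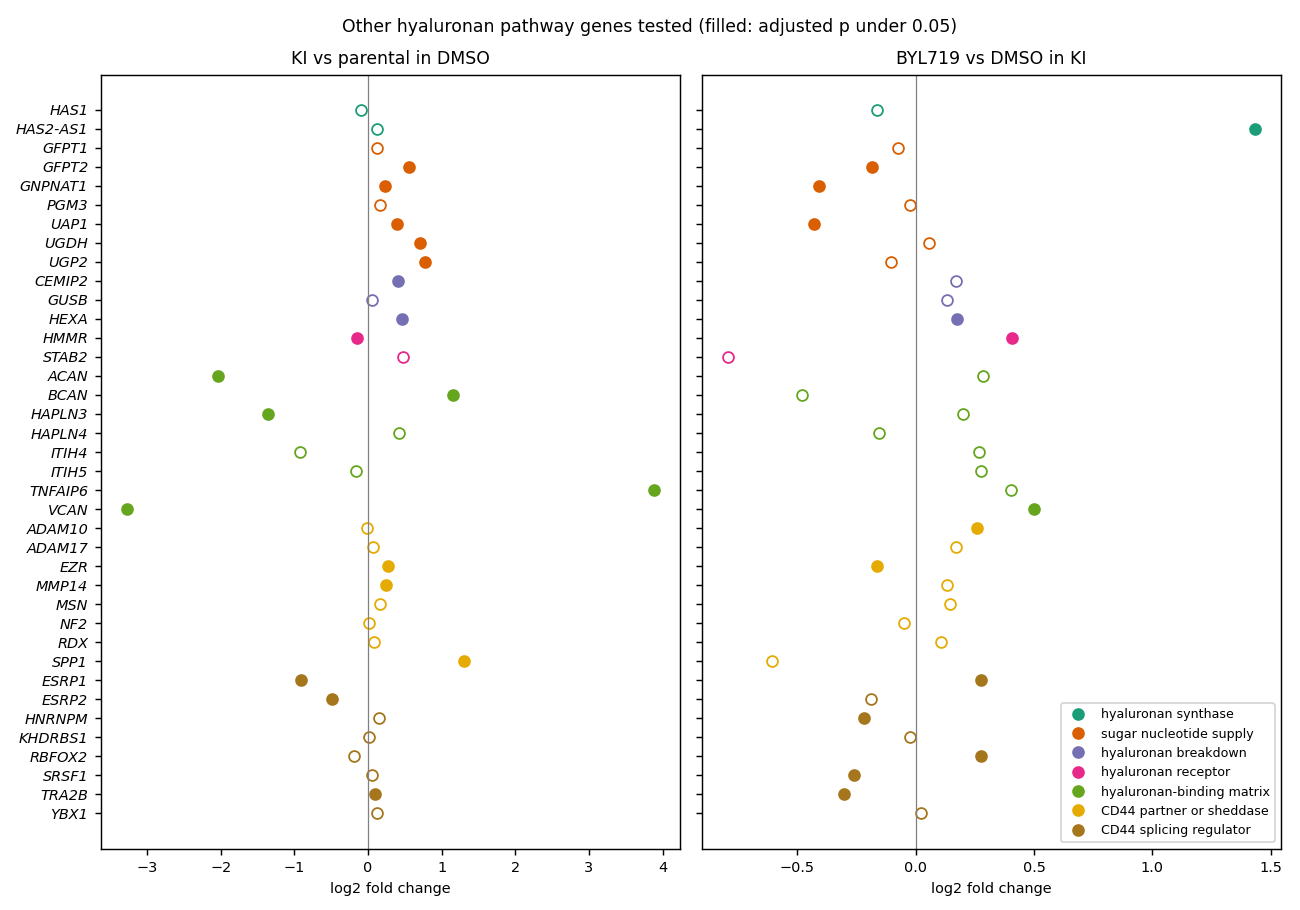
Log2 fold change (horizontal axes, a separate scale per panel) of pathway genes tested that are not among the 7, coloured by role, with 1 gene left out. Filled points had an adjusted p under 0.05. VCAN at -3.27 and TNFAIP6 at 3.88 are the extremes on the left, and HAS2-AS1 at 1.43 is the highest on the right.

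HAS2-AS1, an antisense RNA, overlaps HAS2 by 2098 bases. It was at 0.0757 to 0.182 CPM in KI DMSO and 0.242 to 0.398 CPM in KI BYL719, a log2 rise of 1.43 (edgeR adjusted p = 0.00605). Without strand information its reads cannot be told from those of HAS2 in the overlap.

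Over the 12 libraries, the genes whose levels followed HAS2 most closely by Pearson's r of log2(CPM + 0.5), among 12205 genes, were TFPI, ABCA6 and F2R, with r of 0.98 each. TFPI had group means of 25.2, 36.3, 29.8 and 60.8 CPM in parental DMSO, parental BYL719, KI DMSO and KI BYL719. For HAS3 they were JPH1, MAP3K9 and LRRC8E (r of 0.965, 0.955 and 0.949). For CD44 they were RAPGEF5, SERINC5 and CRYBG1 (r of 0.996, 0.995 and 0.994). These values describe libraries that share the same 4 groups and carry no test.

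The promoters of CD44 and HAS3 are printed as examples of members that moved with BYL719 in opposite directions. They come from RefSeq on GRCh38.p14, 250 bases before to 50 after the gene start, 5′ to 3′ on the plus strand. The RefSeq start lies downstream of the GENCODE gene start in both, so the CD44 window falls inside the first exon of CD44-208 (35138870 to 35139370) and the HAS3 window inside the GENCODE gene, which starts at 69105564. Capitals mark GGGCGG (GC box) and CACGTG (E-box) on either strand.
CD44 (chr11:35138921-35139220): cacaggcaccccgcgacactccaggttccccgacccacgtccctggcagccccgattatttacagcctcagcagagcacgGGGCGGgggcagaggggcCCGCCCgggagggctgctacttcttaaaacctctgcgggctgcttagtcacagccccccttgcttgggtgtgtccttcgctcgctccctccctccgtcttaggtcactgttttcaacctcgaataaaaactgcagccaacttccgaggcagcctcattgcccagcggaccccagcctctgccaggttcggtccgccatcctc
HAS3 (chr16:69107290-69107589): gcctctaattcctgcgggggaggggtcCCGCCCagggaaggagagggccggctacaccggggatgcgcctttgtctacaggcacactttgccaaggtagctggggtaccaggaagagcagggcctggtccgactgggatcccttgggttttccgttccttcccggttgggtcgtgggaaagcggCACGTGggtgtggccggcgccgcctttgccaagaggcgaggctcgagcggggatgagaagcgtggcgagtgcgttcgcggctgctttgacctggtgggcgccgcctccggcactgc
Searched on both strands, CACGTG was in 7.26% and GGGCGG in 45.0% of 35116 promoters of the same length. The FOXO motif TGTTTAC was in 3.42% of them and in neither of the 2 printed here, which says only that these letters are not in this window.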

How the data were processed

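The authors trimmed reads with Trim Galore 0.6.1 and cutadapt and quantified transcripts with Salmon 1.2.1, per the submitters' processing notes, which also name DESeq2 1.28.1 and the build GRCh38. The deposited tables give expected counts (estimated read pairs), TPM and other columns such as effective length per transcript. The sources used here do not state the annotation release or strandedness. The 12 mouse libraries were not analysed here.

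Expected counts were summed by gene and rounded. CPM used library totals. The 12 libraries were fitted by 4 group means with edgeR 4.0.16 in R 4.3.3 (quasi-likelihood, robust, filterByExpr, TMM, 8 residual degrees of freedom), two-sided, with Benjamini-Hochberg adjustment over 21079 genes and calls at an adjusted p under 0.05. Fits were tested on simulated data.

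For transcript shares, the planned test (edgeR diffSpliceDGE) called far too many unchanged transcripts on simulated data. It was replaced by a quasi-likelihood fit of transcript counts with the log of the gene's total as offset, for genes with at least 10 counts in every library, which made few such calls but has little power for small changes. The choice rested on the simulated data alone, but it was made after the planned test's CD44 results had been seen. The counts of both are given in the closing section.

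The members and gene lists were chosen with earlier results of these data known. Text names all 7 members, up to 4 pathway genes per role by adjusted p for KI against parental in DMSO, those called with BYL719 in KI cells or in the interaction, a few set genes, and CD44 transcripts of at least 5% of CD44 TPM. Alternatives were RLE scaling, no TMM, DESeq2, no filter, only the groups compared, effective-length offsets, a replicate block and each library left out. Same-numbered libraries deviated together between parental DMSO and parental BYL719 (r of 0.108 to 0.187 for the 3 pairs, other pairs -0.13 to -0.013). Between KI DMSO and KI BYL719 they did so more weakly (0.032 to 0.114, other pairs -0.135 to 0.014). Deviations cancel within each group, so other pairs are pushed down where same-numbered pairs are up. Same-numbered pairs across genotypes reached 0.15. The numbers may thus pair the libraries within each genotype, as read from the data and not from the labels. A block within each genotype, and CD44 transcript levels without KI DMSO replicate 2, were added after the data were seen. CD44 exons came from GENCODE 29. The values of 1 pathway gene, which is in the counts, are not reported here.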

Additional observations from a re-analysis of the deposited data

Results flagged for a closer look

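For 3 genes the BYL719 effect differed between the genotypes by the interaction test of edgeR (quasi-likelihood, adjusted over all genes). They were 1 of the 7 members, 1 of the 39 other pathway genes tested, and PIK3CA. Over all genes 2.87% were called in the interaction, so nothing is read from this count. HAS2 differed by a log2 value of 0.689 (adjusted p = 0.0463), from effects of 2.03 in parental and 2.72 in KI cells. That call was lost in 13 of 19 other settings. HMMR differed by 0.29 (adjusted p = 0.0258), from 0.12 and 0.41, a call also lost in the settings named for it above. PIK3CA, the edited gene, differed by 0.557 (adjusted p = 0.0198), from 0.25 and 0.81, and its call in other settings is not given. Groups of 3 libraries were not tested for outlying samples.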

How the results depend on the processing

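Of 35 fitted differences (7 genes, 5 comparisons), 17 kept their direction and their side of the threshold in every setting, 5 lost a call, 8 gained one and 5 changed sign in some setting. The sign changes were all in uncalled values: CEMIP with BYL719 in parental cells (-0.00383 to 0.127 with 1 library left out), HAS3 (-0.153 to 0.0662) and HYAL3 (-0.045 to 0.0171; 0.0166 with effective-length offsets) for KI against parental in BYL719, and HYAL1 (-0.135 to 0.119) and CEMIP (-0.0401 to 0.257) in the interaction. The number of members called was 4 with BYL719 in parental cells and 2 with BYL719 in KI cells when only the groups compared were fitted. In those fits 3484 of 20114 and 2610 of 19995 genes were called, against 302 and 5964 of 21079 in the main fit. For KI against parental in BYL719 the number of members called was 2 with RLE scaling, without TMM and with DESeq2. It was 3 with only the groups compared, where 6745 of 20336 genes were called. In the interaction it was 0 with RLE scaling and with effective-length offsets. With 1 library left out these counts ran from 1 to 3, 3 to 5, 1 to 4 and 0 to 1. Pathway genes called with BYL719 in parental cells were 1 without the filter, 0 with effective-length offsets, 9 with only the groups compared, 4 with DESeq2 and 0 to 6 with 1 library left out. In KI cells they were 7 with only the groups compared and 12 to 22 with 1 library left out. In the interaction they were 0 without the filter and with effective-length offsets, 3 with DESeq2 and 0 to 6 with 1 library left out. The cause was not tested.

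CD44 forms with a changed share numbered 1 to 4 in DMSO and 1 to 3 under BYL719 between genotypes with 1 library left out. The planned test, diffSpliceDGE, gave 2 in DMSO and 3 under BYL719, 2 of the latter higher; it was set aside for its calls on simulated data, and the share test used in its place was added after these data had been seen. Leaving out TMM does not enter the share test, so that setting was not run for it. Over all genes, BYL719 in parental cells gave 302 calls, 3484 with only the groups compared, 891 with DESeq2, 133 with effective-length offsets and 73 to 1973 with 1 library left out (1973 without KI DMSO replicate 2). The interaction gave 606 (438 higher), 272 with effective-length offsets (229 higher), 1429 with DESeq2 (813 higher) and 1874 without that library. BYL719 in KI cells gave 5964 and 2610 with only the groups compared, and KI against parental in BYL719 gave 4709 and 7442 without KI DMSO replicate 2.

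Between parental DMSO and BYL719 the 3 same-numbered pairs of libraries correlated at 0.108 to 0.187 in their deviations from the group means. The other pairs there were at -0.13 to -0.013. Between KI DMSO and BYL719 same-numbered pairs were at 0.032 to 0.114, also above the other pairs (-0.135 to 0.014). Across genotypes same-numbered pairs (-0.09 to 0.15) overlapped the others (-0.136 to 0.128). By that measure the numbers may pair the libraries in the parental drug comparison. In KI cells the same-numbered values were no higher than some across genotypes, so pairing there is less clear. With the replicate number as a block shared by all groups, members called for KI against parental in BYL719 were 2 and CD44 forms with a changed share in DMSO were 1. With a replicate block within each genotype, chosen after seeing the data, pathway genes called with BYL719 were 0 in parental cells and 0 in the interaction, and calls over all genes were 125 (94 higher, against 178 of 302) and 304 (252 higher). Of the members' calls this block changed that of HYAL3 with BYL719 in KI cells (edgeR adjusted p = 0.0548) and no other. The shared block added calls of HYAL1 between genotypes in DMSO and in BYL719. The other counts of members, pathway genes and CD44 forms stayed within 1.5 times under the blocks fitted for them. The block within genotype was not run for the share test.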
